A study of Mus musculus with 12 samples.

Results

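The 9 chemokine genes described here, Ccl1, Ccl2, Ccl3, Ccl4, Ccl7, Ccl12, Cxcl2, Cxcl10 and Cxcl14, were chosen by symbol from a table of 16234 genes. They were followed in bone marrow derived mast cells (BMMCs), that is mast cells grown from mouse bone marrow, which carried 0, 1 or 2 disrupted copies of Elk4. The study asked how the loss of ELK4, a transcription factor of the ternary complex factor family, affects mast cell proliferation and activation. RNA-seq libraries were made from unstimulated cells and from cells stimulated through FcεRI, the high-affinity receptor for IgE, with 2 libraries in each of 6 groups and 12 libraries in all. The chemokine genes were chosen with earlier results of these data known.

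The wild-type group (WT) came from littermates of the heterozygous (HZ) and knockout (KO) animals. Per the study's methods the knockout was conventional, present in every cell of the mouse, on a C57BL/6N background, and mice of both sexes aged 6 to 12 weeks were used. All groups shared a 4 to 8 week culture in IL-3 and SCF at 10 ng/ml each, after which over 80% of cells carried both CD117 and FcεRI. Stimulated cells received anti-DNP-IgE at 0.5 μg/ml overnight and then the antigen DNP-HSA at 100 ng/ml for 1 h. Unstimulated cells are labelled untreated, and whether they received IgE is not stated. The labels do not say whether the 2 libraries of a group came from separate mice or cultures, so the p-values below measure only the spread between these libraries, which may be technical. Differences between mice or cultures and differences between genotypes cannot be told apart with these labels.

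Library totals ran from 29697958 to 35531667 counts. The Elk4 count did not follow the genotype labels. It was 2426 and 2740 in unstimulated WT, 3238 and 2837 in HZ, with 2613 and 2253 in KO, and after stimulation 2322 and 1995, 2139 and 1883, and 1867 and 1971. A count over the whole gene cannot show a deletion of part of it, so WT, HZ and KO stand throughout for the libraries labelled so. All 11 mast cell markers with a row, among them Kit, Fcer1a and Cpa3, reached at least 1 CPM, that is counts scaled to library size, with a summed level of 46890 to 57590 CPM. In a list of 14 macrophage and monocyte markers, 6 reached 1 CPM in some library, led by Cd68. In lists for neutrophils, dendritic cells, T cells, B cells and fibroblasts, 0 of the measured markers did. Of 4 basophil markers 3 reached 1 CPM, with Cd200r3, which mast cells also express, at 454 to 667 CPM and Mcpt8 and Prss34 at most at 11.0 and 1.61 CPM, and of 2 eosinophil markers Siglecf did, at up to 3.57 CPM. Because these are bulk samples, fewer cells that make a chemokine and less RNA per cell cannot be told apart.

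Chemokines are small secreted proteins that direct the migration of leukocytes through G protein-coupled receptors. CC and CXC name the spacing of the first cysteines in the protein. Mast cells store little chemokine protein and make it anew, by transcription, once antigen crosslinks the IgE on their surface. Ccl2, Ccl7 and Ccl12 attract monocytes through Ccr2, Ccl3 and Ccl4 are macrophage inflammatory proteins that attract several kinds of leukocyte, Ccl3 by way of Ccr1, and Ccl1 acts on Ccr8. Cxcl2 attracts neutrophils through Cxcr2, Cxcl10 is an interferon-inducible ligand of Cxcr3, and Cxcl14 is best known from epithelia.

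Promoter sequences were found by symbol for 6 of the 9 genes in RefSeq (mouse build GRCm38.p6), all but Ccl2, Ccl4 and Ccl7. The 250 bases before the annotated start are shown for 4 of them, 5′ to 3′ on the gene's strand, to set the regulatory sequence of Ccl3, which was lower in HZ and KO, beside those of Ccl1 and Cxcl2, which were higher there after stimulation, and of Cxcl10, which held the most motif matches. Capitals mark a match, on either strand, to any of the motifs searched. Ccl1 lies at chr11:82179813-82180062 on the minus strand, Ccl3 at chr11:83649379-83649628 on the minus strand, Cxcl2 at chr5:90903649-90903898 on the plus strand and Cxcl10 at chr5:92348890-92349139 on the minus strand.
Ccl1: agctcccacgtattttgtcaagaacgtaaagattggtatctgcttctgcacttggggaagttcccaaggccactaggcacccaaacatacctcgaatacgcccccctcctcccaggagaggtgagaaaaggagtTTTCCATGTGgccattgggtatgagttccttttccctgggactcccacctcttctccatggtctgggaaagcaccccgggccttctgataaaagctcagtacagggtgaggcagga
Ccl3: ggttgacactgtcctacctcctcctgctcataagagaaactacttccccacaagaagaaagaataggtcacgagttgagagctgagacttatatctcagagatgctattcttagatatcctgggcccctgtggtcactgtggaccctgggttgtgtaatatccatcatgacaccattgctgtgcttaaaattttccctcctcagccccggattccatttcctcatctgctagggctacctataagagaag
Cxcl2: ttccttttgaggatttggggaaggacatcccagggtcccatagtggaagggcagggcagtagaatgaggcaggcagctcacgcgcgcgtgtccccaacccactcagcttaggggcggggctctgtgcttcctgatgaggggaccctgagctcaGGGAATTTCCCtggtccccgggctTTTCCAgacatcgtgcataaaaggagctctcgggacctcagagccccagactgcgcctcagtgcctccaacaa
Cxcl10: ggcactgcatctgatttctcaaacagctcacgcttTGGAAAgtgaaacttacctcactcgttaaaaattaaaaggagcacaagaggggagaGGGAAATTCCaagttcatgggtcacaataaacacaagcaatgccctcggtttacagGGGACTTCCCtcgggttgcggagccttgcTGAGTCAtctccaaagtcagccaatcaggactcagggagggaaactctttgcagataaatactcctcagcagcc

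The motifs were a TATA box (TATAAA), an AP-1 site (TGANTCA), 2 E-box forms that MITF can bind (CATGTG and CACGTG), an ETS core (CCGGAA), an NFAT core (TGGAAA), the NF-kappa B site and the CArG box of serum response factor. Over 32851 promoter windows of this length they were found in 12.4%, 6.75%, 12.3%, 6.02%, 12%, 18.6%, 3.9% and 1.47%, in that order. The Ccl1 window held CATGTG from 112 to 107 bases before the start and, overlapping it on the opposite strand, TGGAAA from 116 to 111. In Cxcl2 there was an NF-kappa B match from 97 to 88 bases before the start, overlapped by a match on the other strand, and TGGAAA from 73 to 68. Cxcl10 held NF-kappa B matches at 159 to 150 and at 103 to 94, TGANTCA at 74 to 68 and TGGAAA at 215 to 210. The Ccl12 window, not printed, held TATAAA from 31 to 26 bases before the start. The windows of Ccl3 and Cxcl14 held none of these exact strings. Shorter or other forms of the ETS and NFAT sites were not searched, so their absence is not shown.

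RefSeq places 6 of the genes on chromosome 11, in 2 clusters. In the first, Ccl2, Ccl7, Ccl11, Ccl12, Ccl8 and Ccl1 follow each other, and in the second Ccl5, Ccl9, Ccl6, Ccl3 and Ccl4. Cxcl2 and Cxcl10 are on chromosome 5 and Cxcl14 on chromosome 13. The annotated spans of Ccl3 and Ccl4, from gene start to gene end, overlap in GRCm38.p6. Whether their exons overlap was not examined, and the strand setting of the counting is not given in the sources used here. How reads from the shared stretch were counted, or whether they were left out, is therefore not known. Their neighbours Ccl11 and Ccl8, named for their place between Ccl7 and Ccl1, had at most 1 count in any library, and Ccl5 had at most 12.

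The question of the first comparison was what stimulation for 1 h did to these genes within each genotype. All 5 genes with counts in the unstimulated state, Ccl1, Ccl2, Ccl3, Ccl4 and Ccl7, rose in WT, HZ and KO. Together the 9 genes took 0.0473% to 0.102% of all counts before stimulation and 0.909% to 1.16% after it. A call here needed an adjusted p below 0.05 (edgeR's quasi-likelihood test, Benjamini-Hochberg over 12208 genes) and at least a 2-fold change. Over all genes tested, 3.71% were called higher and 3.06% lower in WT, 7.02% higher and 7.28% lower in HZ, and 3.73% higher and 2.88% lower in KO. All 9 chemokines were called higher and 0 lower in each genotype, but Ccl12, Cxcl2, Cxcl10 and Cxcl14 passed the filter on low counts only through their stimulated libraries, so their calls add no support to that count.

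Among the ligands of Ccr2, Ccl2 was the most abundant before stimulation, at 603 and 599 normalised CPM in the WT libraries, 412 and 427 in HZ, with 319 and 353 in KO. After stimulation it was at 3831 and 3926 CPM in WT, 3712 and 3896 in HZ, with 3679 and 3718 in KO. The unstimulated groups did not overlap, with WT highest and KO lowest, whereas the stimulated groups lay close together. Its rise was 6.45-fold in WT (log2 fold change 2.69 ± 0.03, SE, edgeR adjusted p = 2.84e-50), 9.07-fold in HZ and 11.0-fold in KO.

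Ccl7, the neighbour of Ccl2, started at 139 and 131 CPM in WT, 55.5 and 61.6 in HZ, with 83.3 and 88.9 in KO. It reached 3131 and 3120 CPM in WT, 3325 and 3447 in HZ, with 3474 and 3592 in KO. Unstimulated HZ libraries were the lowest, and after stimulation both HZ and KO libraries were above WT. The rise was 23.2-fold in WT (log2 4.53 ± 0.03, SE, edgeR adjusted p = 2.02e-57), 57.8-fold in HZ and 41.0-fold in KO. Compared per length, as fragments per kilobase of gene and scaled to the library total (FPKM), Ccl2 was 3.80 to 7.38 times as abundant as Ccl7 in the unstimulated libraries and 1.03 to 1.25 times in the stimulated ones.

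Ccl12, the third of these ligands, had 1 and 11 counts in unstimulated WT, 4 and 0 in HZ, with 2 and 0 in KO. Stimulated libraries held 71 and 68 counts in WT, 43 and 30 in HZ, with 24 and 24 in KO. All 6 stimulated libraries were above all 6 unstimulated ones. Ccl12 passed the filter on low counts only through its stimulated libraries, so this separation is not counted as support. With the sums of 2 libraries scaled to library size, the stimulated to unstimulated ratio was 13.3 in WT (exact 95% interval 7.36 to 26.3), 19.8 in HZ (7.42 to 74.6) and 30.9 in KO (8.11 to 263). These intervals cover counting error only. The bounds given for genes at 0 counts set the observed stimulated count against a floor of 3 counts. They take no account of error in the stimulated count.

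Ccl3, which acts on Ccr1, was at 90.6 and 91.0 CPM in unstimulated WT, 12.5 and 13.6 in HZ, with 14.5 and 14.5 in KO. Stimulated WT libraries held 3156 and 3263 CPM, HZ 1921 and 2023, and KO 1651 and 1646. WT was the highest group in both states. The rise was 35.3-fold in WT (log2 5.14 ± 0.03, SE, edgeR adjusted p = 1.51e-60), 151-fold in HZ and 114-fold in KO.

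Ccl4, the adjacent gene and a macrophage inflammatory protein like Ccl3, was at 78.2 and 80.5 CPM in unstimulated WT, 8.21 and 11.6 in HZ, with 11.7 and 11.9 in KO. The stimulated values were 2438 and 2498 CPM in WT, 1389 and 1463 in HZ, with 1202 and 1228 in KO. Its groups were ordered as those of Ccl3 after stimulation, and HZ and KO lay close together before it. Ccl4 rose 31.1-fold in WT (log2 4.96 ± 0.04, SE, edgeR adjusted p = 4.70e-55), 144-fold in HZ and 103-fold in KO. Per length the pair stayed near parity, with a Ccl3 to Ccl4 ratio of FPKM between 0.944 and 1.27 over the 12 libraries.

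Ccl1, the ligand of Ccr8, had few counts before stimulation, 32 and 49 in WT, 33 and 33 in HZ, with 25 and 29 in KO, or 0.667 to 1.40 CPM. Stimulated libraries held 25.5 and 30.4 CPM in WT, 50.9 and 52.4 in HZ, with 58.9 and 63.1 in KO. WT was the lowest group after stimulation, the opposite order to Ccl3. The rise was 23.4-fold in WT (log2 4.55 ± 0.14, SE, edgeR adjusted p = 1.34e-30), 52.8-fold in HZ and 82.0-fold in KO.

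Of the CXC genes, Cxcl2, a neutrophil attractant, had 1 and 1 counts in unstimulated WT and 0 in all 4 unstimulated HZ and KO libraries. After stimulation it had 134 and 89 counts in WT, 313 and 298 in HZ, with 225 and 253 in KO. The ratio in WT was 128 (exact 95% interval 34.9 to 1061). In HZ and KO the stimulated level was at least 221-fold and at least 205-fold higher, set against a floor of 3 counts over the group.

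Cxcl10 had 0 to 4 counts in the unstimulated libraries, and 44 and 26 in stimulated WT, 21 and 9 in HZ, with 17 and 12 in KO. Cxcl14 had 0 counts in all 6 unstimulated libraries, which allows up to 3 counts over the 2 libraries of a group, and 43 and 35 counts in stimulated WT, 5 and 10 in HZ, with 27 and 12 in KO. For both genes every stimulated library was above every unstimulated one, at counts near or under 44. Both passed the filter on low counts only through their stimulated libraries, so this separation is not counted as support. Within a genotype, 33.9% of all genes tested were higher without overlap in WT, 40.1% in HZ and 33.4% in KO. The Cxcl10 ratio was 16.0 in WT (exact 95% interval 6.55 to 50.9), 32.6 in HZ (5.41 to 1328) and 18.7 in KO (4.73 to 162). For Cxcl14 the observed stimulated level was at least 29.8-fold above the floor of 3 counts in WT, 5.43-fold in HZ and 16.8-fold in KO. Error in the stimulated count, 15 in all for HZ, is left out of these values.

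The order of the levels changed with stimulation and with genotype. Over the 6 unstimulated libraries the median FPKM was 562 for Ccl2, 118 for Ccl7, 20.2 for Ccl3, 19.7 for Ccl4 and 2.09 for Ccl1. These medians pool genotypes that differ for Ccl3 and Ccl4. In the unstimulated HZ libraries these 2 genes did not differ beyond their spread, at 17.1 and 18.6 against 13.5 and 19.0 FPKM, and in both unstimulated WT libraries Ccl4 stood above Ccl3, at 132 and 137 against 128 and 129 FPKM. The other 4 genes had medians at or under 0.0863 FPKM.

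In stimulated WT libraries Ccl2 led, at 4348 ± 73.7 FPKM (SD, n = 2), followed by Ccl3 at 3671 ± 84.7, Ccl7 at 3525 ± 10.3 and Ccl4 at 3379 ± 56.4. In stimulated KO libraries Ccl2 was at 4138 ± 28.7 FPKM, Ccl7 at 3977 ± 92.3, Ccl3 at 1881 ± 4.74 and Ccl4 at 1660 ± 24.8. Ccl3 thus stood above Ccl7 in both stimulated WT libraries and below it in both stimulated KO and both stimulated HZ libraries. At the low end, Ccl12 was above Cxcl2 in stimulated WT, at 3.94 ± 0.13 against 3.13 ± 0.90 FPKM, and below it in KO, at 1.43 ± 0.03 against 7.03 ± 0.41 FPKM.

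**Figure D1:**
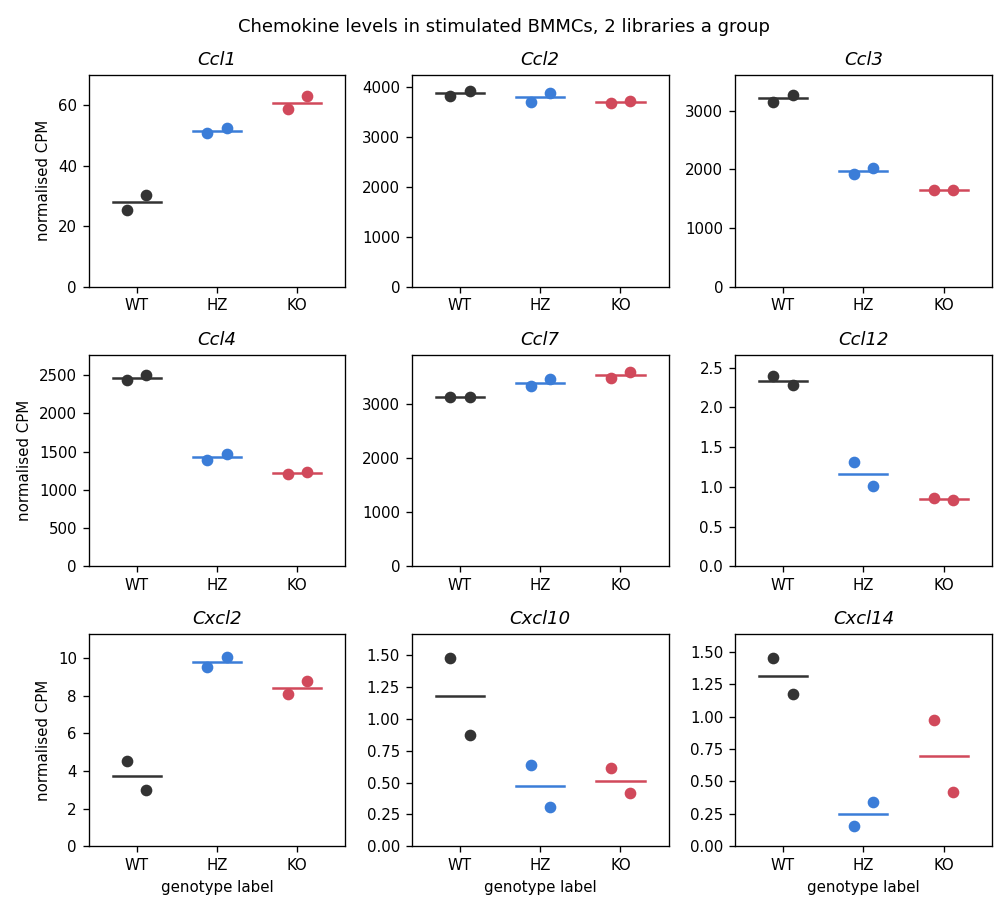
Normalised CPM (y axes, linear from 0, a different scale in each panel) of the 9 chemokines in stimulated BMMCs by genotype label, with a point for each of the 2 libraries of a group and a line at their mean. Ccl3 and Ccl4 are highest in WT, Ccl1 and Cxcl2 are lowest there, and Ccl2 lies between 3679 and 3926 CPM in all 6 libraries.

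The next question was whether genotype changed chemokine RNA before any antigen was given. Ccl3 and Ccl4 fell in both HZ and KO relative to WT. In KO against WT, Ccl3 was 6.26-fold lower (log2 fold change -2.65 ± 0.04, SE, edgeR adjusted p = 2.57e-42) and Ccl4 was 6.72-fold lower (-2.75 ± 0.06, edgeR adjusted p = 1.30e-37). These 2 genes were the members called lower and 0 were called higher, where 4.87% and 2.64% of all genes tested were called so. Ccl2 at -0.84 ± 0.03, Ccl7 at -0.65 ± 0.03 and Ccl1 at -0.68 ± 0.27 (log2 fold change, SE) passed the adjusted p (1.47e-28, 1.65e-21 and 0.0329 by edgeR) but not the 2-fold limit. The unstimulated Ccl1 counts behind that value were 25 to 49, and Ccl1 missed the adjusted p without WT replicate 2 (-0.38, adjusted p = 0.419) or without KO replicate 1 (-0.54, 0.200) and with the fit limited to the groups compared (0.218).

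In HZ against WT, 3 members were called lower and 0 higher, against 5.32% and 3.83% of all genes tested. Ccl3 was 6.97-fold lower (log2 -2.80 ± 0.04, SE, edgeR adjusted p = 1.92e-43), Ccl4 8.04-fold lower (-3.01 ± 0.06, adjusted p = 1.90e-38) and Ccl7 2.30-fold lower (-1.20 ± 0.04, adjusted p = 2.19e-31). Ccl2 differed by -0.52 ± 0.03 and passed the adjusted p alone (7.96e-21), and Ccl1 at -0.28 ± 0.25 did not pass it (0.365). Without the second unstimulated WT library the Ccl1 value was 0.0086, on the other side of 0.

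KO and HZ were closer to each other than either was to WT for Ccl3 and Ccl4. In KO against HZ 0 of the 9 members were called in either direction by edgeR, and 0 by DESeq2, where 1.29% of all genes tested were called higher and 2.06% lower. At the adjusted p alone, or an unadjusted p below 0.05, 4 members passed in edgeR. Over the 12208 genes tested, 2854 were higher and 2661 lower at the adjusted p alone. The 4 of 9 members are thus near the share over all genes. Ccl7 was higher in KO by 0.56 ± 0.04 on the log2 scale (adjusted p = 1.25e-17), Ccl4 by 0.26 ± 0.08 (0.00628) and Ccl3 by 0.16 ± 0.05 (0.0405), and Ccl2 was at -0.32 ± 0.03 (4.58e-13). The values of Ccl4 and Ccl3 rested on single libraries. Without HZ replicate 1 Ccl4 was at 0.025 (adjusted p = 0.863) and Ccl3 at 0.093 (0.399), and without HZ replicate 2 at 0.54 and 0.23. Ccl3 also missed the adjusted p without KO replicate 1 (0.115) or KO replicate 2 (0.112), at an unchanged 0.16. For Ccl7 the unstimulated HZ libraries were the lowest, with KO between HZ and WT. Whether this order comes from Elk4 copy number or from differences between mice or cultures was not tested.

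**Figure D2:**
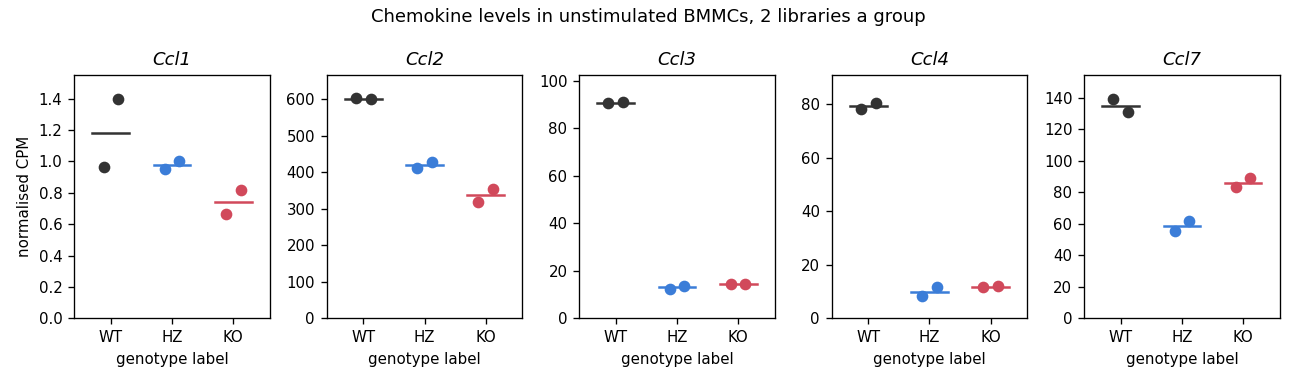
Normalised CPM (y axes, linear from 0, a different scale in each panel) of the 5 chemokines with counts in unstimulated BMMCs, with a point for each of the 2 libraries of a genotype label and a line at their mean. Ccl3 lies at 90.6 and 91.0 CPM in WT and at 12.5 to 14.5 CPM in HZ and KO, and Ccl7 is lowest in HZ.

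Levels of macrophage and monocyte markers moved between these groups too. Their summed level was 48.8 and 51.4 CPM in unstimulated WT, 37.6 and 39.3 in HZ, with 56.9 and 61.2 in KO. After stimulation it was 63.4 and 64.8 CPM in WT, 72.2 and 74.8 in HZ, with 68.9 and 76.5 in KO. The sum was carried by Cd68, at 39.1 CPM in unstimulated WT, 20.5 in HZ and 42.3 in KO by group mean. Lyz2 went the other way in HZ, at 4.26 CPM in unstimulated WT, 10.2 in HZ and 10.9 in KO, as did Adgre1, at 3.54, 5.85 and 4.08 CPM. Ccl3 was lower in both HZ and KO. Csf1r, the receptor that defines the lineage, had 13 and 1 counts in unstimulated WT, 23 and 5 in stimulated WT and 0 to 5 in the other 8 libraries, and Mrc1 and Marco had at most 1. The basophil list summed to 597 and 601 CPM in unstimulated WT, 674 and 673 in HZ, with 470 and 473 in KO, and to 465 to 523 CPM in the stimulated libraries, nearly all of it Cd200r3. Mcpt8, a basophil protease, was at 4.68 and 5.57 CPM in unstimulated WT, 5.41 and 6.34 in HZ, with 7.71 and 8.51 in KO. The part of these cells in the chemokine differences was not tested.

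After stimulation the genotypes were compared at a lower fold limit. A call needed an adjusted p below 0.05 and either a 1.5-fold rise or a ratio no higher than 0.66. In KO against WT, Ccl3, Ccl4 and Ccl12 fell, and Ccl1 and Cxcl2 rose. These are 3 members called lower and 2 called higher, where 7.22% of all genes tested were called lower and 5.44% higher. Ccl3 was 1.95-fold lower (log2 -0.96 ± 0.03, SE, edgeR adjusted p = 9.12e-33) and Ccl4 2.03-fold lower (-1.02 ± 0.03, adjusted p = 5.30e-29). Ccl1 was 2.18-fold higher (1.13 ± 0.09, edgeR adjusted p = 5.22e-15), and Cxcl2 differed by 1.17 ± 0.23 (adjusted p = 3.89e-05).

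Ccl12 differed between stimulated KO and WT by -1.46 ± 0.55 on the log2 scale (SE, edgeR adjusted p = 0.0298), from 24 and 24 counts against 71 and 68. Its call rested on all 4 libraries. Leaving out WT replicate 1, WT replicate 2, KO replicate 1 or KO replicate 2 gave adjusted p values of 0.120, 0.0996, 0.127 and 0.140, while the log2 value stayed between -1.49 and -1.43. Cxcl10 at -1.19 ± 0.65 (edgeR adjusted p = 0.144, 95% interval -2.50 to 0.12) and Cxcl14 at -0.92 ± 0.64 (0.268, -2.21 to 0.37) did not pass the test, with 12 to 44 counts a library.

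Ccl2 and Ccl7 were near equal in the stimulated genotypes. In KO against WT Ccl2 was at -0.07 ± 0.03 on the log2 scale (95% interval -0.12 to -0.01, edgeR adjusted p = 0.0397) and Ccl7 at 0.18 ± 0.03 (0.12 to 0.23, adjusted p = 7.69e-07). Both were far under the fold limit.

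In stimulated HZ against WT, Ccl3, Ccl4 and Cxcl14 fell, and Ccl1 and Cxcl2 rose. Ccl3 was 1.63-fold lower (log2 -0.70 ± 0.03, SE, edgeR adjusted p = 3.87e-27), Ccl4 1.73-fold lower (-0.79 ± 0.03, adjusted p = 2.10e-24) and Cxcl14 lower by a log2 value of -2.42 ± 0.72 (0.00705). Ccl1 was 1.85-fold higher (0.89 ± 0.09, edgeR adjusted p = 1.62e-11) and Cxcl2 was at 1.39 ± 0.23 (2.40e-06). That made 3 members lower and 2 higher, against 4.33% and 3.56% of all genes tested. Cxcl14 passed the filter on low counts through its stimulated WT and KO libraries, where it was higher than in HZ. Its call therefore adds no support to that count. The Cxcl14 call, from 5 and 10 counts against 43 and 35, was lost without WT replicate 1 (adjusted p = 0.0676) or without HZ replicate 1 (0.131), with log2 values of -2.26 and -1.94. Ccl12, from 43 and 30 counts against 71 and 68, was at -1.0 ± 0.53 and did not pass (edgeR adjusted p = 0.142), though it passed with the fit limited to the groups compared (0.0294) and with limma on log2(FPKM + 1) (0.00759). KO and HZ did not differ by the test for Ccl12 (adjusted p = 0.623) or Cxcl14 (0.154). Both comparisons use the same WT libraries.

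Between stimulated KO and HZ 0 of the 9 members were called by edgeR, and 0 by DESeq2, where 1.81% of all genes tested were called higher and 3.51% lower. Ccl3 was lower in KO by a log2 value of -0.26 ± 0.03 (SE, edgeR adjusted p = 2.25e-11), Ccl4 by -0.23 ± 0.03 (3.87e-07), and Ccl1 was higher by 0.24 ± 0.08 (0.0316), each short of the fold limit. At an unadjusted p below 0.05 Ccl7 passed as well, at 0.061 ± 0.028. For Ccl3, Ccl4 and Ccl1 the HZ libraries lay between WT and KO. For Cxcl2 the KO to HZ difference was -0.22 ± 0.21 (adjusted p = 0.518, 95% interval -0.64 to 0.21).

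**Figure D3:**
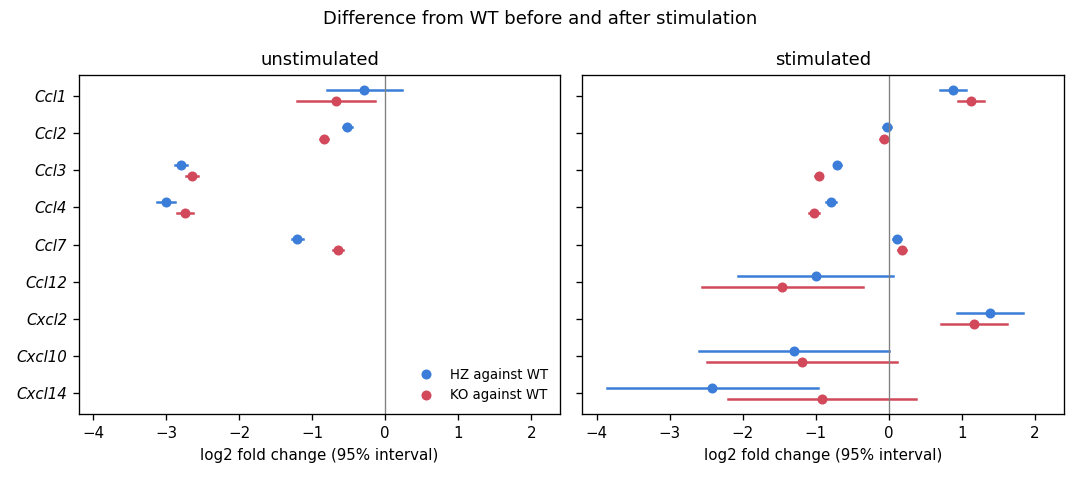
Log2 fold change against WT (x axes, points, with 95% intervals as bars) of each chemokine in HZ and KO, for unstimulated cells on the left and stimulated cells on the right. Ccl3 and Ccl4 lie near -3 to -2.65 before and -1.02 to -0.70 after stimulation, Ccl1 moves from below to above 0, and the 4 genes near 0 counts before stimulation have no value on the left.

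Since the unstimulated and stimulated differences were not the same size, the responses themselves were compared with an interaction term. The rise of all 5 genes with counts in both states was larger in KO than in WT and larger in HZ than in WT. In KO minus WT the 5 members were called larger and 0 smaller, where 5.44% of all genes tested had a larger and 3.83% a smaller response. The difference of log2 responses was 1.81 ± 0.28 for Ccl1 (SE, edgeR adjusted p = 4.95e-06), 1.73 ± 0.07 for Ccl4 and 1.68 ± 0.05 for Ccl3. For Ccl7 it was 0.82 ± 0.04 and for Ccl2 0.77 ± 0.04.

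In HZ minus WT the same 5 members were called larger and 0 smaller, where 19.9% of all genes tested were called larger and 18.6% smaller. The difference was 2.22 ± 0.07 for Ccl4 (SE, edgeR adjusted p = 1.54e-29), 2.10 ± 0.05 for Ccl3, 1.32 ± 0.04 for Ccl7, 1.17 ± 0.27 for Ccl1 and 0.49 ± 0.04 for Ccl2. Ccl3 and Ccl4 had the largest values in HZ, and in KO Ccl1 was beside them. Cxcl2, Cxcl10, Cxcl14 and Ccl12 had under 10 counts on average in unstimulated cells and were given no difference of responses.

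**Figure D4:**
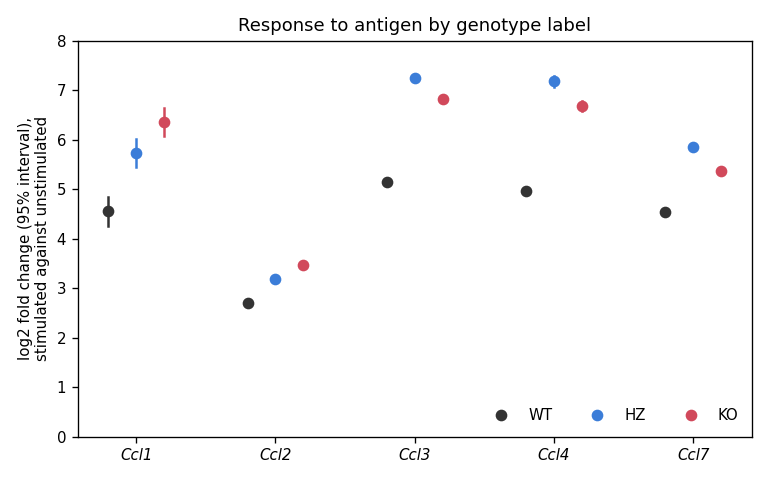
Log2 fold change from unstimulated to stimulated BMMCs (y axis, points, with 95% intervals as bars, many smaller than the point) of 5 chemokines in WT, HZ and KO. WT has the smallest fold change for every gene shown, with 5.14 against 7.24 in HZ and 6.83 in KO for Ccl3.

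A ratio and an increment ranked the genotypes differently. Taking stimulated minus unstimulated CPM, Ccl3 gained 3119 ± 75.5 CPM in WT (SD of the difference, n = 2 libraries a group), 1959 ± 72.1 in HZ and 1634 ± 3.57 in KO. The HZ and KO increments were 62.8% and 52.4% of that in WT, although the fold changes were larger. For Ccl4 the shares were 59.3% and 50.4%. Ccl2 gained 103% of the WT increment in both HZ and KO, Ccl7 111% and 115%, and Ccl1 190% and 225%. Ccl3 and Ccl4 therefore started lower and ended lower in HZ and KO, Ccl2 and Ccl7 started lower and ended near WT, and Ccl1 ended higher.

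Other chemokines in the table are described beside the members. Both lists were chosen with earlier results of these data known, so a contrast between them cannot show whether the pattern is general. Of 29 further chemokine genes listed, 16 had a row and 9 passed the filter on low counts. In WT 0 of these 9 were called in either direction with stimulation, with a median log2 fold change of 0.14 beside -0.01 over all genes. At an adjusted p below 0.05 alone Ccl9 passed, at 0.75 ± 0.15, and 2 genes had an unadjusted p below 0.05 by edgeR. In KO the call was again 0 in either direction, with 1 gene, Ccl9, at an unadjusted p below 0.05, and in HZ 1 was called higher (Ccl17) and 3 lower, Cxcl16 and Cx3cl1 among them.

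Ccl6 and Ccl9, which lie between Ccl5 and Ccl3 in the same cluster and are made by resting myeloid cells, were the most abundant of them. Ccl6 had 610 and 778 counts in unstimulated WT and 550 and 611 in stimulated WT, a log2 change of -0.06 ± 0.10 (SE, edgeR adjusted p = 0.66). Ccl9 had 164 and 149 counts in unstimulated WT, 568 and 562 in HZ, with 502 and 457 in KO. It was higher in unstimulated KO than WT by 1.51 ± 0.14 (adjusted p = 6.19e-13) and in HZ by 1.86 ± 0.14 (3.55e-16), so that 2 genes of 1 cluster, Ccl9 and Ccl3, were called in opposite directions in the same comparison. Over the 9 tested, 4 were called higher and 0 lower in unstimulated KO against WT, namely Ccl9, Cxcl16, Cx3cl1 and Ccl17, and Ccl17 had at most 40 counts in any library.

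Genes whose log2 CPM followed that of a member most closely over the 12 libraries were taken from 9852 genes whose mean count was 100 or higher. These correlations share the step from unstimulated to stimulated cells and are given as a description. Ccl3 was most alike to Prrg4, Cdkn1a and Osm (r of 0.995 to 0.996), and Ccl4 to Cdkn1a, Prrg4 and Ccn1. For Ccl7 they were Il6, Spry2 and Nfkbiz (all 0.999), and for Ccl2 Ppp1r15a, Junb and Gpr171. Ccl1 and Cxcl2 shared Btbd19 and Dusp1 among their 3 closest genes.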

How the data were processed

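The authors deposited raw counts per gene and FPKM values for 12 BMMC libraries. Per the labels, reads were processed with fastp, HISAT2 and HTSeq on GRCm39, and versions, annotation and strand setting are not given in the sources used here. Each FPKM equals the deposited count divided by the library's total count and a fixed gene length. Groups were taken from the labels' genotype and treatment.

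Counts were fitted with edgeR 4.0.16 in R 4.3.3 (TMM, filterByExpr, 1 mean per group, quasi-likelihood test, Benjamini-Hochberg over the 12208 genes tested of 16234). Normalised CPM uses TMM-scaled library sizes. The SE of a log2 fold change was its size divided by the square root of F. All 12 libraries shared 1 estimate of spread, with 6 residual degrees of freedom (38.9 prior) and a biological coefficient of variation of 4.01%. Fold changes were given where at least 1 group had a mean of 10 counts, and response differences where all 4 groups did. For genes with fewer counts, ratios carry exact conditional binomial 95% intervals on summed counts, and a floor of 3 counts where a group was at 0. The fit was tested on simulated data. DESeq2 1.42.0 and limma 3.58.1 on log2(FPKM + 1) were alternatives.

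The members and gene lists were chosen with earlier results of these data known. Named genes are the members, up to 6 genes of each further list by mean CPM and, per member, the 3 genes most alike. The labels use the same replicate numbers in both states, and no pairing was modelled. Differences between replicates were almost uncorrelated between groups (15 group pairs, r of deviations -0.0358 to 0.0629 over 9858 genes). This cannot exclude pairing within a genotype. Promoters came from RefSeq GRCm38.p6 by symbol and gene order from the same assembly, with none of its gene coordinates used with the counts. Sex-linked genes were not analysed here, and 1 receptor gene is not reported here.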

Additional observations from a re-analysis of the deposited data

Results flagged for a closer look

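The response to stimulation differed between genotypes, by the interaction term in edgeR, for each of the 5 chemokines that had counts in both states. In KO minus WT the difference of log2 responses was 1.81 for Ccl1, 0.77 for Ccl2, 1.68 for Ccl3, 1.73 for Ccl4 and 0.82 for Ccl7. In HZ minus WT it was 1.17 for Ccl1, 0.49 for Ccl2, 2.10 for Ccl3, 2.22 for Ccl4 and 1.32 for Ccl7. Both sets use the same 4 WT libraries. Unstimulated WT libraries were the highest for each of the 5 genes by group mean, and for Ccl3 and Ccl4 the gain in CPM was smaller in HZ and KO than in WT, 62.8% and 52.4% of WT for Ccl3, although the fold change was larger.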

How the results depend on the processing

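Of 980 results under alternative settings with every library (78 member results), 948 kept direction and side of the threshold, and of 352 refits with a library left out 342 did. The settings with an adjusted p below 0.01 and with no fold threshold reused the main fit, so their direction and fold change could not differ. With at least 10 counts required in every library only 5 members could be tested, so that 5 in place of 9 were called with stimulation in each genotype, 3 in place of 5 in stimulated KO against WT, and 3 in place of 5 in stimulated HZ against WT. With no fold threshold 5 in place of 2 members were called in unstimulated KO against WT, 4 in place of 0 in unstimulated KO against HZ, and 3 in place of 0 in stimulated KO against HZ. Of the 12208 genes tested, that rule called 2795 higher and 2646 lower in the first, 2854 and 2661 in the second, and 1571 and 1469 in the third. These member counts are therefore not read as a result about the chemokines. Leaving out 1 library turned the sign of Ccl1 in unstimulated HZ against WT (-0.52 to 0.0086, the latter without WT replicate 2), of Ccl2 in stimulated HZ against WT (-0.061 to 0.0084, the latter without HZ replicate 1) and of Cxcl10 in stimulated KO against HZ (-0.32 to 0.74, with -0.32 without HZ replicate 2 and -0.19 without KO replicate 1), none of them called. The counts of members called ranged from 2 to 3 in unstimulated KO against WT, were 4 in stimulated KO against WT, and ranged from 4 to 5 in stimulated HZ against WT when a library was left out.

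Ccl12 in stimulated KO against WT also missed the threshold with limma on log2(FPKM + 0.1) (adjusted p = 0.119), and limma on log2(FPKM + 1) put Cxcl14 short of the fold limit in stimulated HZ against WT (-0.53) and with stimulation in WT and KO (0.68 and 0.39), and Cxcl10 with stimulation in WT, HZ and KO (0.86, 0.45 and 0.47). Library totals in place of TMM moved the median log2 fold change of all genes with stimulation to -0.32 in WT, -0.24 in HZ and -0.30 in KO. Calls over all genes then split 341 higher and 848 lower in WT (453 and 373 with TMM), 604 and 1351 in HZ (857 and 889), 354 and 721 in KO (455 and 352), and 3120 and 1721 for the HZ minus WT response (2429 and 2276), while the members' stimulation calls held. Calls over all genes moved most with no fold threshold, up to 13.5 times the number given, and with limma on log2(FPKM + 1), down to 0.193 times and, with no filter, 0.19 times. The replicate block, a term for replicate number shared by all genotypes, changed no call of a member. With it 9 members were called with stimulation in each genotype and 2 and 5 in unstimulated and stimulated KO against WT. Such a block does not model pairing within a genotype. Every unstimulated count of Cxcl2, Cxcl10 and Cxcl14 was at most 4, which limits their fold changes.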

Other observations

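Chemokine receptors were measured beside their ligands. Of 23 receptor genes listed, 19 had a row and 8 passed the filter on low counts. With stimulation in WT 3 were called higher and 0 lower in edgeR, where 3.71% and 3.06% of all genes tested were called so. Ccr1, a receptor of Ccl3, rose by 1.20 ± 0.04 on the log2 scale (SE, edgeR adjusted p = 2.73e-31). Ccrl2, an atypical receptor, rose by 2.00 ± 0.13 (2.64e-18). Ccr3, the eotaxin receptor, rose by 1.94 ± 0.50 (0.00116), from 11 and 10 counts to 33 and 38. Ccr3 rose by 1.12 ± 0.40 in KO (0.0202) but was at -0.014 ± 0.39 in HZ (0.978). Ccrl2 rose by 3.65 ± 0.11 in KO, and its response was larger in KO than in WT by 1.65 ± 0.18 (edgeR adjusted p = 7.59e-10). Cx3cr1, the fractalkine receptor, was lower in unstimulated KO than WT by a log2 value of -1.28 ± 0.05 (adjusted p = 7.09e-25) and in stimulated KO by -1.12 ± 0.06 (2.83e-21). It was lower in HZ too, by group mean at 62.3 CPM against 119.9 in unstimulated WT, and at 34.2 against 76.7 after stimulation. Ccr1 was lower in stimulated KO than WT by -0.60 ± 0.04 (edgeR adjusted p = 2.56e-19). Ccr3 was higher in KO than WT, by 1.83 ± 0.49 unstimulated (0.00193) and 1.02 ± 0.40 stimulated (0.0392).

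The study also listed quantitative PCR primers for Ccl3 and Ccl4, shown here because the reverse primer is the same for both genes. Each was searched in 141767 GENCODE M21 transcripts.
Ccl3 forward: cagccaggtgtcattttcctga
Ccl3 and Ccl4 reverse: atgcaggtggcaggaatgtt
Ccl4 forward: aaacctaaccccgagcaaca
The reverse primer matched 1 transcript, of Ccl3, at position 429 of 766, and no transcript of Ccl4, whose closest stretch shared 11 of its 20 bases. A primer list cannot show which sequences were used in the study's PCR, and the repeat may be an error in the list. The Ccl4 forward primer matched 1 transcript, of Ccl4, at position 58 of 660. These primers have no bearing on the counts given here, which come from sequencing.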
